A study of Mus musculus with 18 samples.

Results

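The genes that make cholesterol and fatty acids were followed in mouse dendritic cells exposed to lipopolysaccharide (LPS), a molecule of the bacterial outer membrane that the receptor TLR4 senses. The set was a list of 32 genes of both pathways and of their regulators, and 30 of them were found among the 12394 genes read from the array. Each gene was read from the probe set annotated to it alone, taking the one with the highest mean where there were several. Acat2 and Insig1 were not analysed here. Acaca lay below the median of every array and was not tested, and Elovl6 was tested only where the unstimulated arrays were included, which left 28 tested genes over the arrays with LPS and 29 over all arrays.

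Both pathways start from acetyl-CoA. The mevalonate pathway builds isoprenoid units from it, squalene synthase joins farnesyl units to squalene, and a further series of enzymes turns squalene into cholesterol; fatty acid synthase, elongases and desaturases build saturated and unsaturated fatty acids. The transcription factors encoded by Srebf1 and Srebf2 are held in the endoplasmic reticulum by the escort protein Scap and the Insig proteins while sterols are plentiful, and are released to switch on both sets of genes when sterols run low. In macrophages stimulated through TLR4, interferon signalling and the oxysterol made by Ch25h are known to lower this programme.

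The study compared cells in which calcium flux and activation of the transcription factor NFAT could or could not follow LPS. Marrow of C57BL/6 mice aged 6 to 8 weeks was cultured for 7 to 10 days in medium with GM-CSF from transduced B16 melanoma cells, and all 18 arrays came from such cultures, used when more than 90% of the cells carried CD11c. There were 3 conditions: wild type cells with LPS at 1 µg/ml, wild type cells with the same LPS and 2 mM of the calcium chelator EGTA, and cells of Cd14-/- C57BL/6 mice, which lack the LPS co-receptor CD14, with LPS of no stated concentration. Each condition had 1 array without LPS and 1 at each of 2, 4, 6, 12 and 24 h of LPS. The unstimulated cells were harvested 24 h after plating, so they match only the 24 h cells in time since plating, and for the unstimulated array of the EGTA series the title gives EGTA but the protocol describes only the plating. No label says whether arrays came from separate cultures or animals, so the p-values reflect no more than how these arrays vary, and that variation may be technical.

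The promoters of 4 genes are shown because these genes are followed across the arrays below: Hmgcs1, Idi1 and Cyp51 of the sterol branch, and Fasn of the fatty acid branch. The sequences are RefSeq's for assembly GRCm38.p6, 5′ to 3′, with 250 bases before and 50 after the start of the gene. Capitals mark the CCAAT box, the recognition letters of NF-Y, a factor known to act together with the SREBP factors (CCAAT, or ATTGG where it lies on the other strand), and in Hmgcs1 also a sterol regulatory element (TCACNCCAC).
Hmgcs1 promoter, chr13:119690101-119690400, plus strand: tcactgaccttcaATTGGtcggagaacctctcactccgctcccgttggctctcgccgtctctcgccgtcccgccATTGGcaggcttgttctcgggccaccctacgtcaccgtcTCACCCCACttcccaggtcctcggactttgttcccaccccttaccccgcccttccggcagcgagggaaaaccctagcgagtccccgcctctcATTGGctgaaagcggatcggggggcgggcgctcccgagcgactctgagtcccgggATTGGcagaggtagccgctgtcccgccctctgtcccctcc
Idi1 promoter, chr13:8885356-8885655, plus strand: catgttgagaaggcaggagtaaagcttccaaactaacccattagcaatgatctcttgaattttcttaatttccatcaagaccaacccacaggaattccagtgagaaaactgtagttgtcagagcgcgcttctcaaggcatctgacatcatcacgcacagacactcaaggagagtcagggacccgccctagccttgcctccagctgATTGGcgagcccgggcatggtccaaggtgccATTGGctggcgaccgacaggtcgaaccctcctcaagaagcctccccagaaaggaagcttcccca
Cyp51 promoter, chr5:4104648-4104947, minus strand: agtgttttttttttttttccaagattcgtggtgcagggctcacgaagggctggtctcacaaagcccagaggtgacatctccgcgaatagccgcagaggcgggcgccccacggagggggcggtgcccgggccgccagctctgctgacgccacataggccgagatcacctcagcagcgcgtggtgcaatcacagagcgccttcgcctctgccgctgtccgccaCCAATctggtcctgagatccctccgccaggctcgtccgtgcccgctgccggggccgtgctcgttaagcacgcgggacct
Fasn promoter, chr11:120824498-120824797, minus strand: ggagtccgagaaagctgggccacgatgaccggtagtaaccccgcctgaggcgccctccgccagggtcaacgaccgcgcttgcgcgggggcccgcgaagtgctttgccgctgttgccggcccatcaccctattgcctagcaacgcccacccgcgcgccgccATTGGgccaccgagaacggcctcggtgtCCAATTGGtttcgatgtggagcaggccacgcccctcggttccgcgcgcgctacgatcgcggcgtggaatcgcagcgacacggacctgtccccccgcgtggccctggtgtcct

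A promoter was in the table for 23 of the 30 genes, with 29 promoters in all. The sterol regulatory element, searched on both strands as TCACNCCAC, was in 1 of the 29, that of Hmgcs1 (137 bases before the start), against 1.24% of the 32851 promoters in the table. A CCAAT box on either strand was in 20 of the 29, a share of 69%, against 37.4% of all promoters. The GC box GGGCGG was in 21 of the 29, or 72.4%, against 35.7%, and the E-box CACGTG in 6 of the 29, or 20.7%, against 7.15%. In Fasn a CCAAT and an ATTGG overlap, and no other marked sites of the 4 promoters do. The shares describe windows of 300 bases, several promoters of 1 gene can overlap, and a match of letters is not a measured binding site. Sites that differ from TCACNCCAC by a letter were not counted, so a promoter without a match may hold another form of the element.

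The 18 arrays had median intensities of 77.9 to 127. RNA integrity numbers were 8.8 and 8.7 for the EGTA arrays at 12 and 24 h and 9.3 to 10 for the other arrays. The unstimulated EGTA array stood apart, with the lowest median correlation with the other arrays (0.930) and a first percentile of intensity of 3.63 against at most 0.939 elsewhere. Cd14 itself was at 12.49 to 13.28 on the wild type and EGTA arrays and at 4.28 to 5.83 on the Cd14-deficient arrays, as labelled. The CD11c gene Itgax was at 11.22 to 12.40 on all arrays. Levels here and below are quantile-normalised log2 intensities, with 16 added before the log, and differences are differences on that scale. They are compared within a gene only, and in such bulk samples fewer cells of a type and less RNA per cell cannot be told apart.

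**Figure D1:**
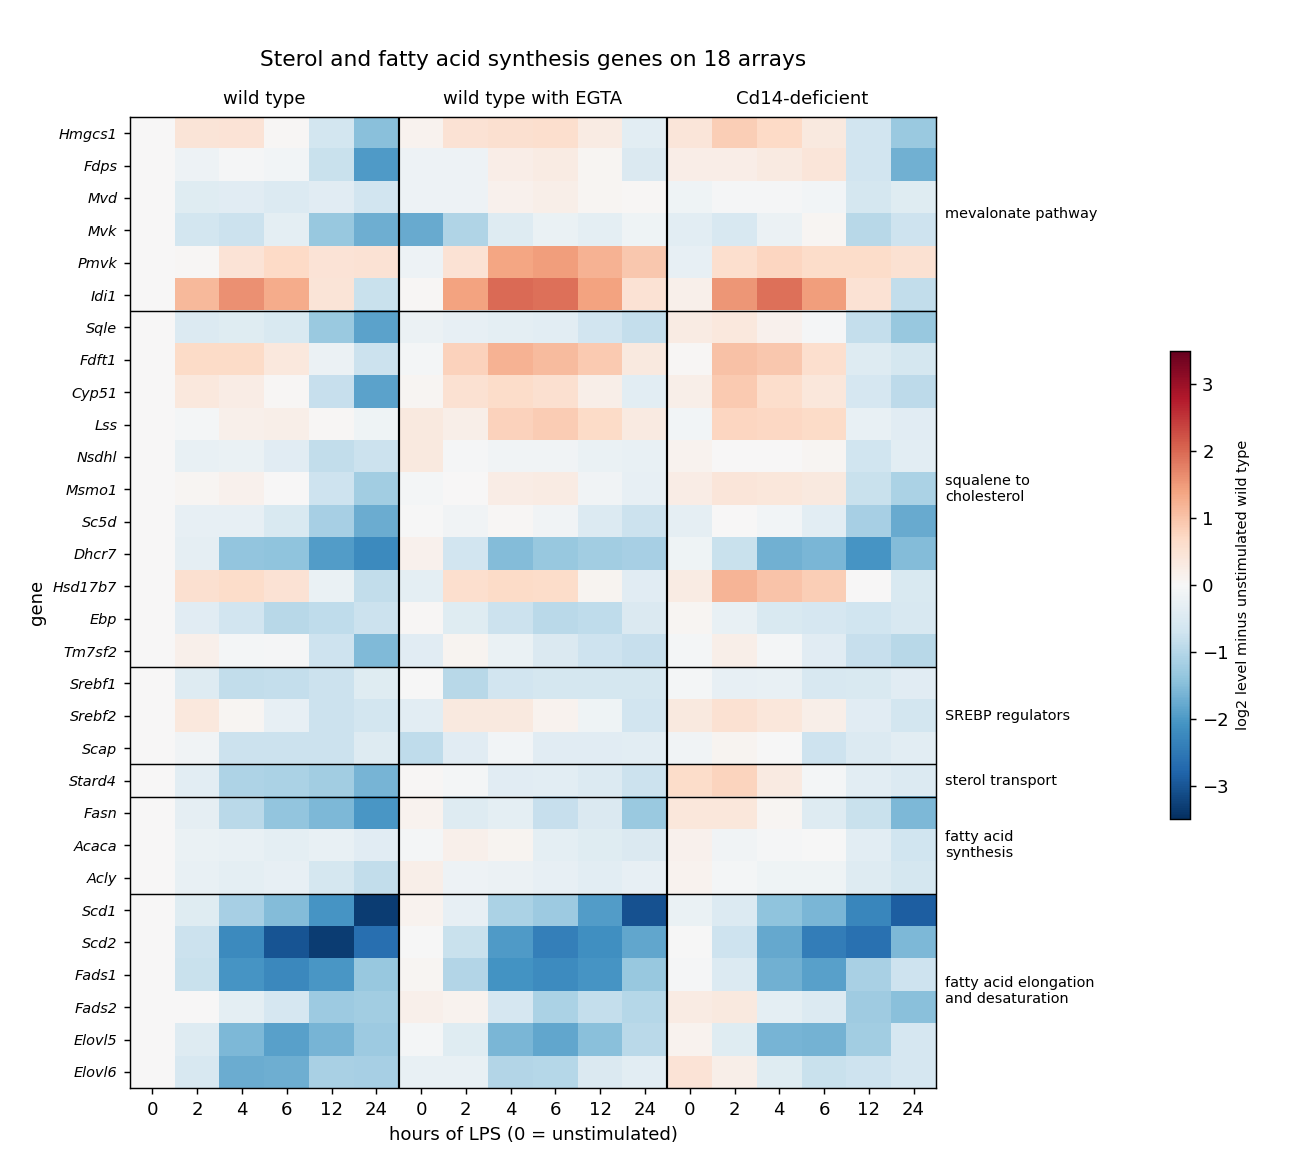
Log2 level of each of the 30 genes on each of the 18 arrays, minus the level of the same gene on the unstimulated wild type array, with genes in rows by role and arrays in columns by condition and hours of LPS. The desaturase and elongase genes are blue from 4 h on in all 3 conditions, Idi1 and Pmvk are red at 4 and 6 h, and most sterol genes are bluest at 24 h in wild type cells.

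Most of these genes were lower at 24 h of LPS than in unstimulated cells, and a small set of sterol genes was first higher. Before 24 h, LPS and time since plating cannot be told apart, so the early rises below are not credited to LPS alone. At 24 h, the only time matched in time since plating, 22 of the 29 tested genes had fallen and 1 had risen, where 25.8% of the 7056 genes tested were lower and 26.5% higher (limma over all 18 arrays with condition as a block, Benjamini-Hochberg adjusted p below 0.05). The median change of the 29 genes was -0.93, against 0.01 for all genes tested. Averaged over the 5 LPS times, of which only 24 h is matched, 15 of the 29 were lower and 4 higher. Of all genes 34.7% were lower and 27.3% higher. The median of the 29 was -0.44, against -0.05 for all genes.

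How the arrays were scaled moved these shares. With the arrays only centred on their medians, 28.3% of all genes were higher and 18.2% lower at 24 h, and with no further scaling 10.3% and 39.6%. For the mean of the times the shares were 34.6% and 21.5% with centring, and 13.1% and 52.5% with no further scaling, which put the median of all genes at -0.32. The gap between the median of the 29 genes and that of all genes at 24 h was -0.94, -0.86 and -0.86 under the 3 scalings, and over the mean of the times -0.38, -0.29 and -0.29.

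Of the fatty acid genes, 7 were tested on levels above the median of arrays with and without LPS, and these 7 were lower over the mean of the LPS times and at 24 h. Elovl6, the elongase of palmitate, is in the counts above as an eighth lower gene, but it was above the median on 3 arrays only, 2 of them unstimulated, and so passed the filter through the arrays where it was high. Acaca, whose product makes malonyl-CoA, was below the median of every array.

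Scd1 and Scd2 encode the desaturases that make monounsaturated fatty acids such as oleate. Scd1 was at 11.05 in unstimulated wild type cells and at 10.63, 9.88, 9.53, 8.99 and 7.74 after 2, 4, 6, 12 and 24 h. With EGTA it was at 11.16 without LPS and then at 10.77, 9.94, 9.79, 9.09 and 8.00, and in Cd14-deficient cells at 10.83 and then at 10.57, 9.65, 9.44, 8.77 and 8.16. Every later array of a condition was thus lower than the one before, in all 3 conditions. The change at 24 h was -3.05 ± 0.11 (standard error), 8.26-fold lower, with an adjusted p of 9.75e-12.

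Scd2 fell sooner and came partly back. It was at 13.19 in unstimulated wild type cells and at 12.44, 10.95, 10.16, 9.86 and 10.56 over the 5 times. With EGTA the levels were 13.17, then 12.40, 11.21, 10.81, 11.04 and 11.36, and in Cd14-deficient cells 13.17, then 12.47, 11.40, 10.76, 10.57 and 11.62. The lowest array was the 12 h one in wild type and Cd14-deficient cells and the 6 h one with EGTA. Its change was -2.68 ± 0.19 at 12 h and -1.99 ± 0.19 at 24 h, the latter 3.98-fold lower (adjusted p = 6.05e-07).

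Fads1 and Fads2, the desaturases of polyunsaturated fatty acids, and Elovl5, the elongase that works with them, fell as well. Fads1 was at 9.45 in unstimulated wild type cells, at 7.20 at 6 h and at 8.13 at 24 h, and its change was -2.13 ± 0.15 at 6 h and -1.14 ± 0.15 at 24 h (adjusted p = 1.30e-05). Elovl5 had changes of -1.80 ± 0.11 at 6 h and -0.95 ± 0.11 at 24 h (adjusted p = 3.81e-06). Both were therefore lowest in the middle of the course. Fads2 had changes of -0.88 ± 0.18 at 6 h and -1.38 ± 0.18 at 24 h (adjusted p = 1.48e-05), but its late course differed between conditions. At 6, 12 and 24 h it was at 7.50, 6.74 and 6.53 in Cd14-deficient cells, which kept falling. Wild type levels were 7.40, 6.71 and 6.76, and EGTA levels 6.89, 7.16 and 7.00, lowest at 6 h. Fads2 was above the median on 12 arrays only, and its 24 h level was below the array median in each condition. Elovl6 was at 7.16, 6.91 and 7.63 on the unstimulated wild type, EGTA and Cd14-deficient arrays and at 5.99, 6.78 and 6.58 at 24 h.

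Fasn, which makes palmitate, fell too. It was at 9.37 in unstimulated wild type cells and at 9.05, 8.43, 7.99, 7.79 and 7.33 after LPS. With EGTA it was at 9.50, then 8.91, 9.04, 8.57, 8.87 and 8.08, and in Cd14-deficient cells at 9.77, then 9.76, 9.43, 8.93, 8.58 and 7.80. The 24 h array was the lowest in each condition; wild type and Cd14-deficient levels were lower at each later time, while EGTA levels went up from 2 to 4 h and from 6 to 12 h. The change at 24 h was -1.81 ± 0.19, 3.51-fold lower (adjusted p = 1.62e-06). Acly, which supplies acetyl-CoA from citrate, fell by less, with -0.69 ± 0.08 at 24 h (adjusted p = 6.61e-06).

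Among the 6 measured genes of the mevalonate pathway the first hours looked different. Idi1, the isomerase of isopentenyl diphosphate, was at 10.58 in unstimulated wild type cells and at 11.72, 12.17, 11.89, 11.02 and 9.81 after 2, 4, 6, 12 and 24 h. The EGTA arrays read 10.63, then 11.98, 12.55, 12.52, 11.98 and 11.09, and the Cd14-deficient arrays 10.75, then 12.13, 12.52, 12.05, 11.08 and 9.72. The 4 h array was the highest in each condition, and by 24 h wild type and Cd14-deficient cells were under their starting level while EGTA cells were not. The rise at 4 h was 1.76 ± 0.22, 3.39-fold (adjusted p = 6.64e-06), and at 24 h the change was -0.45 ± 0.22 (adjusted p = 0.105).

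Pmvk, which adds the second phosphate to mevalonate, stayed up. It was at 8.58 in unstimulated wild type cells and at 8.62, 9.05, 9.28, 9.06 and 9.09 after LPS. The EGTA arrays were at 8.40, then 9.08, 9.97, 10.04, 9.80 and 9.51, and the Cd14-deficient arrays at 8.30, then 9.18, 9.32, 9.21, 9.23 and 9.11. All 15 arrays with LPS were above the unstimulated array of their condition. Pmvk was the 1 gene higher at 24 h, by 0.81 ± 0.18 (adjusted p = 0.00127), and it rose by 0.88 ± 0.14 over the mean of the times (adjusted p = 5.03e-05); with no further scaling of the arrays the 24 h call was lost (adjusted p = 0.101).

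Hmgcs1, which makes HMG-CoA, was lower at the end of the course. Wild type arrays were at 12.03 without LPS and at 12.47, 12.50, 12.08, 11.38 and 10.57 after it. With EGTA the levels were 12.14, then 12.54, 12.59, 12.63, 12.31 and 11.65, and in Cd14-deficient cells 12.45, then 12.90, 12.72, 12.36, 11.36 and 10.74. In each condition the 24 h array was the lowest, and its change was -1.22 ± 0.21 (adjusted p = 0.000206). Fdps, which makes farnesyl diphosphate, had -1.39 ± 0.25 at 24 h (adjusted p = 0.000307), while Mvd, the decarboxylase of the pathway, had -0.24 ± 0.16 (adjusted p = 0.209) and Mvk, mevalonate kinase, -0.16 ± 0.41 (adjusted p = 0.753). These 2 averages cover conditions whose changes had opposite signs. Mvk was at 6.20 on the unstimulated EGTA array, which stood apart, against 7.96 in wild type and 7.60 in Cd14-deficient cells. At 24 h its EGTA level was 7.80, so the sign of its EGTA change rests on that unstimulated array. Against the unstimulated array of its condition, Mvk had -1.72 in wild type, -0.38 in Cd14-deficient and 1.60 in EGTA cells at 24 h. Mvd had -0.67, -0.28 and 0.21 in the same order, and Fdps -1.97, -1.89 and -0.30.

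From squalene onward 9 of 11 genes were lower at 24 h. Fdft1, squalene synthase, and Hsd17b7, a ketoreductase of the demethylation steps, rose early, by 0.84 ± 0.23 (adjusted p = 0.00841) and 0.79 ± 0.14 (adjusted p = 0.000464) at 2 h. Cyp51 was also up at 2 h, by 0.36 in wild type, 0.48 in EGTA and 0.70 in Cd14-deficient cells. In the same order Tm7sf2 was up by 0.17, 0.49 and 0.27 and Msmo1 by 0.06, 0.10 and 0.17. At 24 h Hsd17b7 was lower, with -0.58 ± 0.14 (adjusted p = 0.00324). Fdft1 had -0.33 ± 0.23 (adjusted p = 0.234), with -0.74 in wild type, -0.67 in Cd14-deficient and 0.41 in EGTA cells. Over the mean of the 5 times both were higher, with 0.33 for Hsd17b7 and 0.45 for Fdft1, calls that were lost without the unstimulated EGTA array and with no further scaling, where Hsd17b7 had -0.02.

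Dhcr7, the reductase of the last step to cholesterol, did not share that early rise. It was at 9.34 in unstimulated wild type cells and at 9.02, 7.97, 7.92, 7.39 and 7.10 after LPS, and its change was -1.52 ± 0.21 at 4 h and -1.63 ± 0.21 at 24 h (adjusted p = 1.26e-05). Ebp, a sterol isomerase, was lower from 2 h on, with -0.39 ± 0.08 there (adjusted p = 0.00114) and -0.64 ± 0.08 at 24 h. Sqle, the monooxygenase that opens the squalene steps, had -1.36 ± 0.19 at 24 h (adjusted p = 2.15e-05), Sc5d, a sterol desaturase, -1.31 ± 0.17, and Cyp51, the lanosterol demethylase, -1.14 ± 0.21. Tm7sf2 (-0.95), Msmo1 (-0.93) and Nsdhl (-0.62), which reduce or demethylate sterols, were lower at 24 h too, and Lss, lanosterol synthase, had -0.17 ± 0.21 (adjusted p = 0.520). For some genes these averages cover unlike changes. In wild type, Cd14-deficient and EGTA cells, Cyp51 had -1.87, -1.12 and -0.42 at 24 h and Msmo1 -1.23, -1.37 and -0.20. Nsdhl had -0.75, -0.51 and -0.59 in the same order.

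Of the regulators, Srebf1 was lower at 24 h, with -0.44 ± 0.14 (adjusted p = 0.0161). That call was lost with median centring, without the arrays of RNA integrity under 9 and without the unstimulated EGTA array. It was also lost in 4 of the 22 fits that left arrays out. Srebf2 was lower too, with -0.63 ± 0.15 (adjusted p = 0.00249). Srebf2 had first risen, by 0.42 ± 0.15 at 2 h (adjusted p = 0.0359), while Srebf1 was lower at every time from 2 h on. Scap had -0.05 ± 0.22 at 24 h (adjusted p = 0.851), with -0.44 in wild type, -0.23 in Cd14-deficient and 0.51 in EGTA cells. Its level was 7.54 on the unstimulated EGTA array, which stood apart, against 8.43 in wild type and 8.30 in Cd14-deficient cells. At 24 h the levels of Scap were 7.98 in wild type, 8.06 in Cd14-deficient and 8.05 in EGTA cells. Stard4, a carrier of cholesterol between membranes, fell by 1.18 ± 0.15 at 24 h (adjusted p = 1.11e-05).

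The fall came together with that of dividing cell markers, all 15 of which were lower over the mean of the LPS times with a median of -1.33. Their summed intensity was 16836, 14891 and 26511 on the unstimulated wild type, EGTA and Cd14-deficient arrays and 4723 to 16721 on the arrays with LPS. Granulocyte markers were lower in 11 of 12 and higher in 1, with summed intensities of 42306 to 45214 without LPS and 14466 to 40228 with it. The part of these cells in the changes of the lipid genes was not tested.

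Levels under LPS were next compared between Cd14-deficient and wild type cells. This compares levels, not the change with LPS. For that change, tested further below against the lone unstimulated arrays, 0 genes of the set were called. Under LPS, 11 of the 28 tested genes were higher in Cd14-deficient than in wild type cells and 0 were lower, where 17.1% of the 6929 genes tested were higher and 12.6% lower (limma over the 15 arrays with LPS, with time as a block). The 15 genes at an unadjusted p below 0.05 were all higher, and the median difference was 0.26, against 0.04 for all genes tested. With the arrays only centred on their medians 11.9% of all genes were higher and 15.5% lower, and with no further scaling 4.34% and 15.3%, and 6 and 3 of the 28 genes were then called higher. The gap between the 28 genes' median and that of all genes was 0.22, 0.23 and 0.23 under the 3 scalings.

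Stard4 differed most. Its levels in Cd14-deficient cells were 10.77 without LPS and 10.92, 10.46, 10.08, 9.77 and 9.66 after it. Wild type levels were 10.14, then 9.77, 9.07, 9.02, 8.92 and 8.50, and EGTA levels 10.17, then 10.06, 9.74, 9.76, 9.67 and 9.39. The Cd14-deficient array was the highest of the 3 at every time, unstimulated cells included, and the wild type array was the lowest. Over the LPS times Cd14-deficient cells were higher by 1.12 ± 0.10, 2.17-fold (adjusted p = 7.90e-06), in 5 of 5 times, against a difference of 0.64 between the unstimulated arrays.

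Fasn, with the levels given above, was 0.78 ± 0.15 higher without CD14, 1.72-fold (adjusted p = 0.00218), against 0.40 on the unstimulated arrays. Of the other fatty acid genes, Scd2 was 0.57 ± 0.14 higher (adjusted p = 0.00954), Fads1 0.51 ± 0.09 (adjusted p = 0.00162) and Elovl5 0.25 ± 0.09 (adjusted p = 0.0445). The differences of Scd2, Fads1 and Elovl5 between the unstimulated arrays were -0.01, -0.04 and 0.11. Scd1, the gene with the largest fall at 24 h, though not over the mean of the times, had a difference of -0.03 ± 0.09 (95% interval -0.22 to 0.15, adjusted p = 0.793). Acly was 0.19 ± 0.07 higher (adjusted p = 0.0584) and Fads2 0.04 ± 0.15 (adjusted p = 0.857); the second probe set of Fads2 gave 0.35.

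In the sterol branch 5 of 17 genes were higher in Cd14-deficient cells, where 17.1% of all genes tested were. All 5 were from squalene onward, but the median difference of the 11 tested genes there was 0.22. The median of the 6 mevalonate pathway genes was 0.22 as well. Sqle was at 10.97, 10.73, 10.56, 9.76 and 9.27 after LPS in these cells, and at 10.12, 10.16, 10.06, 9.29 and 8.73 in wild type cells. Its difference was 0.58 ± 0.14 (adjusted p = 0.00711), in 5 of 5 times. Cyp51 (0.48 ± 0.16, adjusted p = 0.0396), Hsd17b7 (0.38 ± 0.10, adjusted p = 0.0102), Nsdhl (0.30 ± 0.09, adjusted p = 0.0211) and Ebp (0.22 ± 0.06, adjusted p = 0.0184) were the other 4, each higher in 5 of 5 times. Between the unstimulated arrays the differences of Sqle, Cyp51, Hsd17b7, Nsdhl and Ebp were 0.29, 0.21, 0.28, 0.13 and 0.08. None of the 6 mevalonate pathway genes passed, with 2 of them at an unadjusted p below 0.05 and differences of 0.18 to 0.47. Without the 2 EGTA arrays of lower RNA integrity in the fit, Fdps (0.34 ± 0.07, adjusted p = 0.00561) and Mvk (0.47 ± 0.13, adjusted p = 0.0197) passed.

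Srebf2 was 0.27 ± 0.09 higher without CD14 (adjusted p = 0.0352), and Srebf1 and Scap had differences of the same size that did not pass (adjusted p = 0.0765 and 0.122). Between the unstimulated arrays the differences of Srebf2, Srebf1 and Scap were 0.34, -0.08 and -0.13, so that of Srebf2 was also seen between these single arrays. The calls of Stard4, Fasn and Fads1 held under every setting tried, and those of Sqle, Scd2 and Hsd17b7 were lost only with no further scaling. The call of Elovl5 was lost in 6 of 9 settings and 14 of 20 fits that left arrays out, with differences of 0.10 to 0.34. That of Cyp51 was lost in 4 and 11, of Srebf2 in 4 and 10, of Nsdhl in 2 and 7, and of Ebp in 2 and 5. Leaving out the wild type or the Cd14-deficient 6 h array left 6 calls, as did leaving out all 6 h arrays, and leaving out the wild type 12 h array left 7.

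Dividing cell markers moved with this comparison: 10 of 15 were higher in Cd14-deficient cells and 0 lower, with a median of 0.79 and summed intensities under LPS of 5566 to 16721 against 4723 to 12894 in wild type cells. Plk1, 1 of the 15, was above the median under LPS only on Cd14-deficient arrays (7.26, 7.85 and 7.21 at 2, 4 and 6 h). It was thus tested only because it was high there. Macrophage markers were lower in 6 of 10 and higher in 1, with sums of 19185 to 32264 against 27037 to 38337. Granulocyte markers were higher in 5 of 12 and lower in 2, with sums of 19767 to 36182 against 14640 to 38908. Dendritic cell markers were higher in 5 of 9, with sums of 38913 to 45818 against 36478 to 44011. Both tested plasmacytoid dendritic cell markers were lower, with sums of 940 to 4690 against 1865 to 6307, as were 2 of 4 mast cell and basophil markers, with sums of 514 to 746 against 727 to 1097. All 7 markers of T and NK cells were below the median of every array, with sums of 78.9 to 142 in the 2 kinds of cells under LPS. The part of these cells in the result was not tested.

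**Figure D2:**
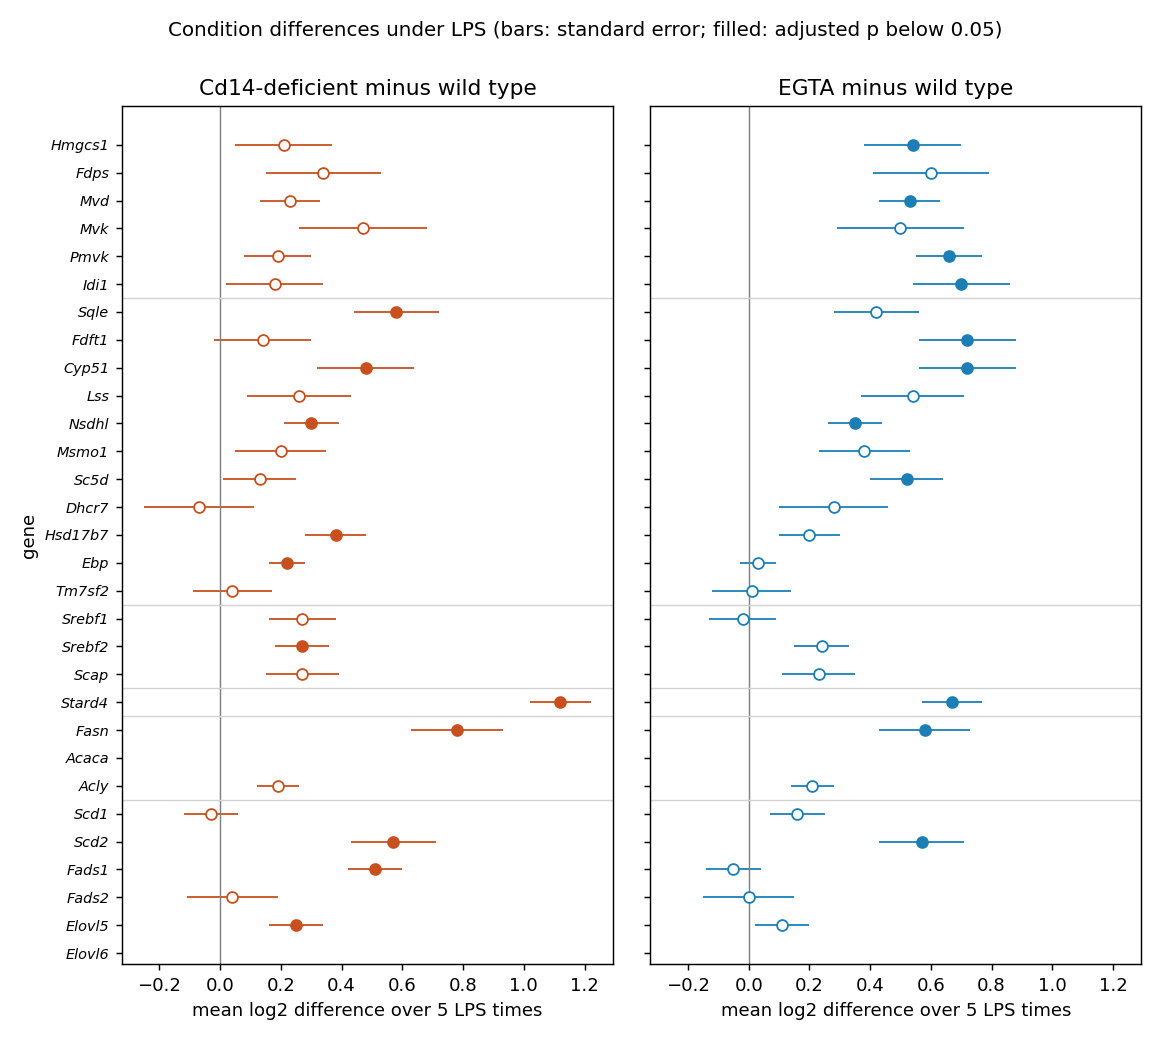
Mean log2 difference over the 5 LPS times for each tested gene, Cd14-deficient minus wild type on the left and EGTA minus wild type on the right, with bars of 1 standard error and filled points for an adjusted p below 0.05. Stard4 and Fasn stand furthest right on the left side, at 1.12 and 0.78, and most sterol genes lie between 0.35 and 0.72 on the right side.

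Wild type cells given LPS with EGTA were compared with the same wild type arrays, so both sets of differences share their control. Here 11 of 28 genes were higher and 0 lower, against 7.39% higher and 6.22% lower among the 6929 genes tested, and 18 genes were at an unadjusted p below 0.05, all of them higher. The median difference was 0.40, against 0.01 for all genes tested, and 8 of the 17 sterol enzyme genes were among the 11. Median centring also gave 11 calls and no further scaling 13, with gaps to the median of all genes of 0.39, 0.38 and 0.38. Leaving out the EGTA 12 h array left 5 calls, and leaving out the wild type 6 h or 12 h array or all 24 h arrays left 7. Leaving out all 6 h or all 12 h arrays left 4, and the highest count was 16, without the EGTA 2 h array.

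The calls of Pmvk and Stard4 held under every setting and every fit that left arrays out. That of Hmgcs1 was lost in 5 of 9 settings and 13 of 20 such fits, with differences of 0.19 to 0.69. Those of Fasn, Scd2 and Nsdhl were lost in 11, 8 and 8 of the 20 fits, and those of the other 5 genes in at most 3.

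In the mevalonate pathway 4 of 6 genes were higher with EGTA. Pmvk, with the levels given above, was 0.66 ± 0.11 higher, 1.58-fold (adjusted p = 0.00198), Idi1 0.70 ± 0.16 (adjusted p = 0.0144) and Hmgcs1 0.54 ± 0.16 (adjusted p = 0.0420). Mvd was at 9.07, 9.41, 9.45, 9.32 and 9.28 with EGTA and at 8.82, 8.86, 8.77, 8.86 and 8.58 without it. All 5 EGTA arrays of Mvd were thus above all 5 wild type arrays, and the difference was 0.53 ± 0.10 (adjusted p = 0.00539). Fdps had 0.60 ± 0.19 (adjusted p = 0.0505) and Mvk 0.50 ± 0.21 (adjusted p = 0.140).

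Past squalene, Cyp51 was at 10.57, 10.68, 10.58, 10.24 and 9.67 with EGTA and at 10.40, 10.30, 10.07, 9.23 and 8.16 without it. In Cd14-deficient cells it was at 10.94, 10.65, 10.43, 9.45 and 9.12. The wild type array was the lowest of the 3 at each time, and the gap between EGTA and wild type grew from 0.18 at 2 h to 1.51 at 24 h. The mean difference was 0.72 ± 0.16, 1.64-fold (adjusted p = 0.0119).

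Fdft1, squalene synthase, was at 10.68, 11.11, 10.99, 10.79 and 10.22 with EGTA against 10.55, 10.55, 10.26, 9.68 and 9.14 in wild type cells, a difference of 0.72 ± 0.16 (adjusted p = 0.0113). Sc5d (0.52 ± 0.12, adjusted p = 0.0171) and Nsdhl (0.35 ± 0.09, adjusted p = 0.0209) were the other 2. Lss and Sqle had 0.54 ± 0.17 (adjusted p = 0.0520) and 0.42 ± 0.14 (adjusted p = 0.0652) and missed the threshold, as did Msmo1 and Dhcr7, with 0.38 and 0.28. Ebp and Tm7sf2 had differences of 0.03 ± 0.06 and 0.01 ± 0.13.

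Stard4 was 0.67 ± 0.10 higher with EGTA (adjusted p = 0.00116), Fasn 0.58 ± 0.15 (adjusted p = 0.0247) and Scd2 0.57 ± 0.14 (adjusted p = 0.0204). The other fatty acid genes did not pass, with -0.05 ± 0.09 for Fads1, 0.11 ± 0.09 for Elovl5, 0.16 ± 0.09 for Scd1 and 0.21 ± 0.07 for Acly. None of the 3 regulators passed, with 1 at an unadjusted p below 0.05: Srebf2 had 0.24 ± 0.09 (adjusted p = 0.0919), Scap 0.23 and Srebf1 -0.02. Of the dividing cell markers 0 of 15 passed in limma, with 0 at an unadjusted p below 0.05, and of the macrophage markers 3 of 10 were higher and 0 lower, with sums of 30234 to 34996 with EGTA against 27037 to 38337. Dendritic cell markers were higher in 2 of 9, and 2 of 4 mast cell and basophil markers were lower. Their part in the result was not tested.

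**Figure D3:**
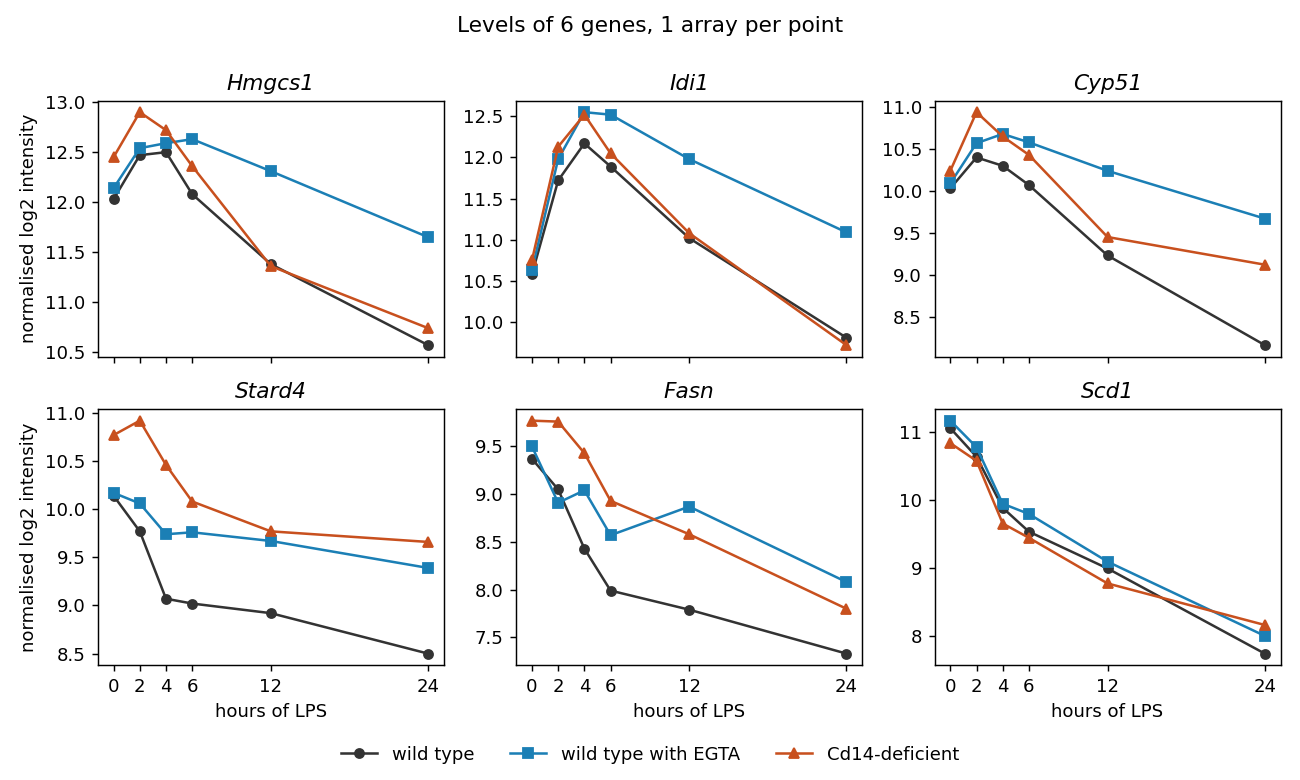
Normalised log2 intensity of 6 genes against hours of LPS, with 1 array per point, in wild type cells (circles), wild type cells with EGTA (squares) and Cd14-deficient cells (triangles). In Hmgcs1 and Idi1 the Cd14-deficient points meet the wild type points at 12 and 24 h while the EGTA points stay above them, in Stard4 both lines lie above wild type, and in Scd1 the 3 lines run together.

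The median EGTA difference was higher at each later time, and the late EGTA arrays are also the ones of lower RNA integrity. The median difference of the 17 sterol enzyme genes was -0.06 without LPS and 0.13, 0.28, 0.40, 0.69 and 1.00 at the 5 LPS times in order. EGTA was above wild type in 7 of the 17 without LPS and in 11, 14, 16, 17 and 17 at the 5 times, where 50.5% of all genes tested were higher at 24 h. Without the 12 and 24 h EGTA arrays 2 of the 28 genes were called, Pmvk (0.68 ± 0.14, adjusted p = 0.0177) and Stard4 (0.53 ± 0.11, adjusted p = 0.0184), where 6.62% of all genes were called in either direction. The median of the 28 genes was then 0.19, against 0.01 for all genes. Since the 2 arrays are the only late ones with EGTA, late time and RNA integrity cannot be told apart.

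Whether the difference between late (12 and 24 h) and early times itself passed was tested as an interaction. For EGTA 0 of 28 genes passed, as did 0% of all genes tested, with 16 of the 28 at an unadjusted p below 0.05 and a median of 0.45 against -0.01 for all genes. The largest were Mvk (1.27 ± 0.25, adjusted p = 0.0827), Dhcr7 (1.04 ± 0.22, adjusted p = 0.103) and Fdps (0.94 ± 0.17, adjusted p = 0.0822). Without the wild type 12 h array 5 genes passed, without the EGTA 12 h array 2, without the EGTA 6 h array or all 6 h arrays 1, and without all 12 h arrays 6. For Cd14-deficient cells 0 of 28 passed, against 0.0433% of all genes, with 7 at an unadjusted p below 0.05 and a median of -0.16.

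**Figure D4:**
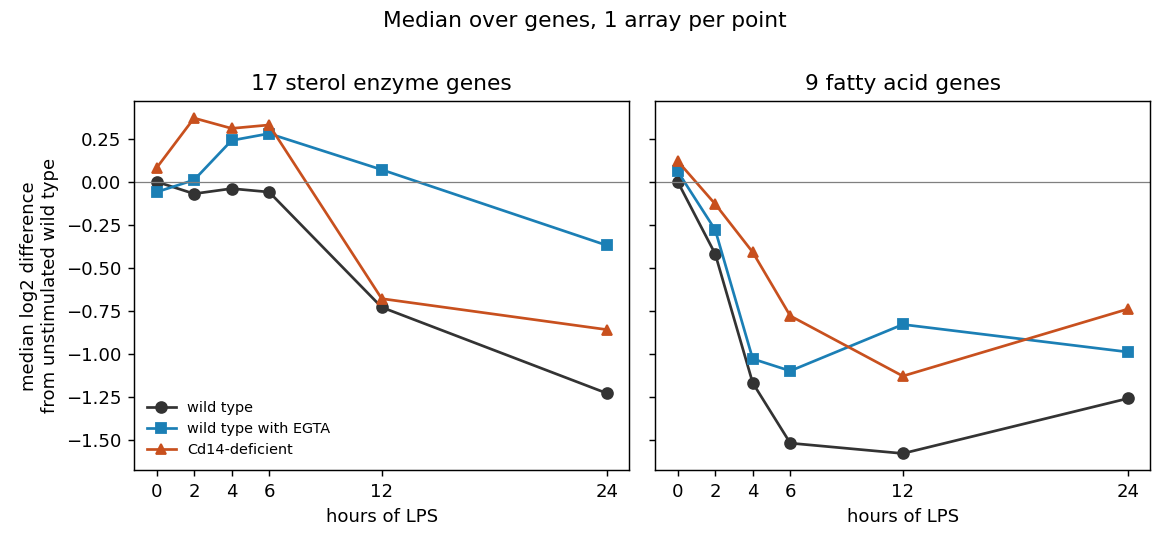
Median over 17 sterol enzyme genes (left) and 9 fatty acid genes (right) of the log2 level minus that on the unstimulated wild type array, against hours of LPS, with 1 array per point. The sterol median ends at -1.23 in wild type, -0.86 in Cd14-deficient and -0.37 in EGTA cells at 24 h, while the fatty acid median is down from 4 h on in all 3.

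Followed from the unstimulated wild type array, the median of the 17 sterol enzyme genes was -0.07, -0.04, -0.06, -0.73 and -1.23 in wild type cells at the 5 times. In EGTA cells it was 0.01, 0.24, 0.28, 0.07 and -0.37, and in Cd14-deficient cells 0.37, 0.31, 0.33, -0.68 and -0.86. Wild type cells thus had the lowest median of the 3 conditions at every LPS time, and EGTA cells the highest at 12 and 24 h. For the 9 fatty acid genes the wild type medians were -0.42, -1.17, -1.52, -1.58 and -1.26. Those of EGTA cells were -0.28, -1.03, -1.10, -0.83 and -0.99, and those of Cd14-deficient cells -0.13, -0.41, -0.78, -1.13 and -0.74.

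Between Cd14-deficient and wild type cells the differences of the sterol enzyme genes varied over the course, with 0 of the 17 passing the test of late against early and 4 at an unadjusted p below 0.05. Their medians were 0.08 without LPS and 0.40, 0.28, 0.35, 0.05 and 0.24 at the 5 times, with 10 of 17 genes higher without LPS and 16, 16, 14, 9 and 14 after it. Shares of all genes tested that were higher ran from 52.5% to 56.4% over the LPS times. Lss, for one, was 0.82, 0.56 and 0.47 higher at 2, 4 and 6 h and had -0.30 and -0.25 at 12 and 24 h. Cyp51 and Mvk had their largest differences, 0.95 and 0.98, at 24 h.

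Set against each other directly, Cd14-deficient cells were higher than EGTA cells in 3 of the 28 genes and lower in 5, against 16.8% higher and 14.4% lower among all genes tested. With median centring 10.9% of all genes were higher and 18.3% lower, and with no further scaling 3.78% and 27.6%, and of the 28 genes 2 were then higher and 6 lower, and 1 and 8. The counts of the 28 genes thus lay near the shares of all genes. Fdft1 (-0.58 ± 0.16, adjusted p = 0.0159), Idi1 (-0.52 ± 0.16, adjusted p = 0.0279), Pmvk (-0.47 ± 0.11, adjusted p = 0.00642), Sc5d (-0.39 ± 0.12, adjusted p = 0.0318) and Mvd (-0.30 ± 0.10, adjusted p = 0.0427) were lower. Fads1 (0.56 ± 0.09, adjusted p = 0.000827) and Stard4 (0.45 ± 0.10, adjusted p = 0.00475) were higher, as was Ebp (0.18 ± 0.06, adjusted p = 0.0375). With no further scaling Ebp turned to -0.05, and Stard4 had 0.23 and was no longer called (adjusted p = 0.242). The calls of Fads1 and Pmvk held throughout, while those of Mvd, Ebp, Idi1, Sc5d and Fdft1 were lost in 15, 12, 9, 9 and 5 of the 20 fits that left arrays out.

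Fads1 was at 8.98, 7.76, 7.55, 8.32 and 8.72 in Cd14-deficient cells under LPS, at 8.42, 7.36, 7.25, 7.38 and 8.12 with EGTA and at 8.66, 7.38, 7.20, 7.42 and 8.13 in wild type cells. The Cd14-deficient array was the highest at each time, and the other two lay within 0.24 of each other. Without the low-integrity arrays 6 of the 28 genes were higher in Cd14-deficient cells and 1 lower, where 23.8% of all genes were called in either direction. Leaving out the EGTA or the Cd14-deficient 12 h array, or all 6 h or all 12 h arrays, left 3 calls. Leaving out the Cd14-deficient 6 h array left 4, and leaving out all 4 h arrays left 5.

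Whether LPS changed a gene differently in the conditions was tested against the lone unstimulated array of each, which was assumed to vary like the arrays with LPS. For Cd14-deficient cells 0 of 29 genes passed, against 0.156% of all genes, with 1 at an unadjusted p below 0.05. For EGTA 1 of 29 passed, against 1.66% of all genes. This was Mvk, at 6.20 on the unstimulated EGTA array and at 7.96 and 7.60 on the wild type and Cd14-deficient ones, and its change with LPS was 2.27 ± 0.52 larger with EGTA (adjusted p = 0.0484). The call was lost in 14 of the 21 fits that left arrays out: without the wild type or the EGTA array of 4, 6 or 12 h, without any 1 of the Cd14-deficient arrays with LPS, and without all arrays of 4, 6 or 12 h. Leaving out the EGTA 2 h array gave 2 calls and all 2 h arrays 3. With the mean of its probe sets Mvk had 1.09 (adjusted p = 0.197).

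Other genes of the pathways, from a further list, were read beside these. Of 22 tested genes of sterol and fatty acid synthesis outside the 32, 7 were higher in Cd14-deficient cells and 0 lower, where 17.1% and 12.6% of all genes were. With EGTA 0 were higher and 2 lower, near the 7.39% and 6.22% of all genes. The 7 included Acat1, a thiolase of acetyl-CoA (0.75 ± 0.09, adjusted p = 0.000106), Mid1ip1, which promotes acetyl-CoA carboxylase activity (0.60 ± 0.09, adjusted p = 0.000485), Elovl1, an elongase of long saturated chains (0.33 ± 0.06, adjusted p = 0.00177), and Lpin1, a phosphatidate phosphatase (0.89 ± 0.23, adjusted p = 0.0116). With EGTA, Cers2, a ceramide synthase, and Acsl4, an acyl-CoA synthetase, were lower, with -0.32 ± 0.06 and -0.22 ± 0.07. Over the mean of the LPS times 11 of the 22 were lower and 2 higher than in unstimulated cells, against 34.7% and 27.3% of all genes. Lpin1 had -2.32 ± 0.23 and Lbr, a sterol reductase of the nuclear envelope, -1.70 ± 0.09.

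Of 9 tested genes of sterol uptake and SREBP processing, 4 were lower in Cd14-deficient cells and 0 higher, where 12.6% and 17.1% of all genes were. The other 5 did not pass and 2 of them had a positive difference, and 0 passed with EGTA in limma, with 2 at an unadjusted p below 0.05. The cholesterol exporters of the lysosome Npc1 (-0.54 ± 0.07, adjusted p = 0.000187) and Npc2 (-0.25 ± 0.03, adjusted p = 0.000243), the endosomal sterol carrier Stard3 (-0.45 ± 0.06, adjusted p = 0.000221) and Insig2, a retention protein of the SREBP factors (-0.46 ± 0.07, adjusted p = 0.000395), made up the 4. On the single unstimulated wild type and Cd14-deficient arrays Npc1 was at 9.76 and 9.38 and Stard3 at 8.95 and 8.59, so both also differed between these arrays. Npc2 was at 12.91 and 12.80 there and Insig2 at 7.90 and 7.95. Under LPS, Insig2 was at 8.64, 9.28, 8.98, 8.36 and 8.79 in wild type cells and at 8.16, 8.61, 8.53, 8.06 and 8.41 in Cd14-deficient cells, lower at each time. Over the mean of the LPS times Scarb1, a receptor for high-density lipoprotein, fell by 1.22 ± 0.09 and Stard3 rose by 0.85 ± 0.06.

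Of 7 tested genes of sterol oxidation and LXR action, Ch25h, which makes the oxysterol that restrains SREBP processing, was at 6.66 in unstimulated wild type cells and at 10.79, 12.02, 12.30, 11.80 and 9.81 after LPS. Its levels with EGTA were 6.63, then 10.50, 11.56, 11.54, 11.10 and 9.21, and in Cd14-deficient cells 7.43, then 11.05, 11.98, 12.36, 12.05 and 10.73. Over the mean of the LPS times it rose by 4.35 ± 0.14, 20.3-fold (adjusted p = 1.41e-12), and EGTA arrays were the lowest of the 3 at every LPS time. EGTA cells were lower than wild type cells, with a difference of -0.56 ± 0.13 (adjusted p = 0.0130), and Cd14-deficient cells were not among those called.

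Nr1h3, a liver X receptor gene, was at 6.38, 7.43, 8.21, 8.40 and 8.24 with EGTA and at 6.48, 6.33, 6.64, 6.99 and 6.80 in wild type cells. It was above the median on 4 arrays only, all of them with EGTA, and so was tested only because it was high there; its levels are given as a description. Apoe, an LXR target that carries cholesterol out of cells, was lower without CD14, with -1.65 ± 0.06 (adjusted p = 2.52e-09) and higher with EGTA by 0.20 ± 0.06 (adjusted p = 0.0462). Its unstimulated levels were 11.36 in wild type and 9.94 in Cd14-deficient cells, so a difference without CD14 was also seen between these single arrays. Lpcat3, an LXR target that remodels phospholipids, was higher without CD14 by 0.65 ± 0.06 (adjusted p = 8.74e-06). It too differed between the single unstimulated arrays, with levels of 10.04 in wild type and 10.56 in Cd14-deficient cells.

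Of the 30 genes, 18 had more than 1 probe set, and 18 of the 28 further probe sets lay above the median of at least 2 arrays. Of these 18, 17 had the sign of the probe set used in the Cd14-deficient difference, 17 in the EGTA difference and 18 in the 24 h change. The exception in the first was Mvk, whose second probe set gave -0.05. Scd1 and Scd2 are close copies of each other, and probe sets such as those used for Hmgcs1 and Fdft1 can bind related transcripts, so signal may be shared between near-identical genes.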

How the data were processed

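RNA of 18 samples was measured on Affymetrix arrays, 1 each, and the deposited table holds 1 linear signal intensity for each of 22690 probe sets and each array. These intensities were made with MAS5, per the submitters' processing notes, with no version or scaling target named (not given in the sources used here). Labels named every column. Of the probe sets, 20393 were annotated to 1 gene, 691 to several and 1606 to none; 20364 of the first were found in the RefSeq table.

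Intensities were turned into log2(intensity + 16) and quantile normalised over the 18 arrays, and each gene was read from its 1-gene probe set with the highest mean. Genes above the median of their array on at least 2 of the fitted arrays were tested with limma 3.58.1 in R 4.3.3 (intensity trend, Benjamini-Hochberg adjustment over all genes tested): conditions over 15 arrays with time as a block (8 residual degrees of freedom), LPS over 18 arrays with condition as a block (10), late against early (6) and the LPS change between conditions (8). With 1 array for each condition and time, the number of arrays limits the precision. All genes found are named, with up to 4 called genes of each further list. The genes and lists were chosen with earlier results of these data known. Scaling, pseudocount, filter, probe set rule, moderation of the variance and left-out arrays were varied.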

Additional observations from a re-analysis of the deposited data

Results flagged for a closer look

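For 1 gene the change with LPS differed between conditions by a test of the difference itself. The change of Mvk, mevalonate kinase, was 2.27 larger on the log2 scale with EGTA than in wild type cells (limma, adjusted p = 0.0484). It rested on the unstimulated EGTA array, at 6.20 against 7.96 in wild type cells, the array that stood apart from the others. The call was lost in 5 of the other settings and 14 of the 21 fits that left arrays out, with values of 1.09 to 2.58 and adjusted p-values of up to 0.197.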

How the results depend on the processing

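Of the 73 calls on single genes, 40 held in every setting that gave a value. With median centring 6 genes were called in Cd14-deficient against wild type cells, and with no further scaling 3, where 11 had been called. Without the 2 EGTA arrays of lower RNA integrity 2 of 11 were called for EGTA against wild type, and the late against early test was not run. For the LPS change with EGTA, median centring gave 6 calls in place of 1, and no further scaling, a pseudocount of 64, no filter, the stricter filter, the mean of probe sets and variance moderation with no trend gave 0. With no further scaling the difference of Ebp between Cd14-deficient and EGTA cells was -0.05 and the LPS change of Hsd17b7 -0.02, both reversed. The causes were not tested. Leaving out arrays gave 6 to 13 calls for Cd14-deficient cells, 4 to 16 for EGTA, 3 to 9 between the 2, 17 to 21 for the mean LPS change, 21 to 25 at 24 h, 0 to 6 for late against early with EGTA, and 0 to 3 for the LPS change with EGTA. The condition fits compare arrays of the same time, with time as a block; no label gives replicate numbers.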
